A study of Mus musculus with 93 samples.

Results

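Cholesterol and fatty acid synthesis in the mouse brain was followed through 30 genes, chosen by name. They are 7 genes of the mevalonate steps, 3 that lead from there through squalene to lanosterol, 8 that turn lanosterol into cholesterol, 5 regulators, 2 of sterol transport and turnover, and 5 of fatty acid and glycerolipid synthesis. Their Ensembl identifiers were matched to symbols in the GENCODE M21 annotation of GRCm38, and all 30 were found among the 47729 gene identifiers listed for any mouse. Of those identifiers, 47643 were listed for every mouse, whether or not reads were counted on them, and 47224 of these had a symbol. All 30 members passed a filter that kept 23702 genes.

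RNA of the left hemisphere, taken from 93 mice at 8 months of age, was sequenced to ask how natural genetic variation alters the effect of *APP/PS1* transgenes. B6 stands for C57BL/6J, used in most laboratories, while the inbred strains PWK (PWK/PhJ), WSB (WSB/EiJ) and CAST (CAST/EiJ) descend from mice caught in the wild. For every strain there were WT mice and *APP/PS1* mice, littermates that carry the transgenes under the prion protein promoter. From a B6 line the transgenes were brought into the wild-derived strains by at least 6 generations of backcrossing. These mice model amyloid deposition from overexpressed, mutant human sequence and not the whole of Alzheimer's disease. PWK.*APP/PS1* mice were housed singly from an earlier age than the other groups because of aggression, so that in PWK the transgenes and early single housing cannot be told apart.

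Each combination of strain, genotype and sex held 6 mice. The exceptions were female PWK WT mice, of which there were 5, and female B6.*APP/PS1* mice, of which there were 4. Libraries held 53969802 to 106016200 reads assigned to genes, and the median library 66559575. Levels are given as CPM, the count of a gene relative to its scaled library. edgeR's quasi-likelihood test served for all differences, with 1 fit of the 93 mice, each contrast being the mean of the female and the male contrast. P-values were adjusted by Benjamini-Hochberg over the 23702 genes, with a threshold of 0.05. By their library numbers, the mice of CAST, WSB and PWK fell into 3 blocks of up to 24 libraries, each holding mice of all 3 strains and both genotypes. The B6 libraries were numbered apart, so a difference between B6 and another strain and a difference that goes with the library numbers cannot be told apart. A pair of B6 mice, WT male replicate 5 and *APP/PS1* female replicate 2, lay at -58.7 and -58.5 on the leading principal component of all 93 mice, the lowest values in a strain that ran from -58.7 to -54.5, and calls of members in the responses or between the sexes that change without them are given with the member.

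The adult brain makes nearly all of its own cholesterol, since lipoproteins of the blood do not pass its barrier. Acetyl-CoA is built up through mevalonate to farnesyl diphosphate, joined to squalene, closed to lanosterol and then trimmed to cholesterol, most of which ends in myelin and cell membranes. SREBP transcription factors, held in the endoplasmic reticulum by INSIG proteins and escorted to the Golgi by SCAP when sterol is scarce, switch on the genes of both sterol and fatty acid synthesis.

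Levels per length differed widely among the members. In the 47 WT mice, *Scd2*, the main stearoyl-CoA desaturase of the brain, ranged from 289.7 to 426 (median 345, mean 351) CPM per 1000 bases of exon. *Scd1*, its close relative, ranged on the same scale from 44.0 to 74.0 (median 55.9, mean 57.3). *Hmgcs1*, the cytosolic HMG-CoA synthase, ranged from 41.8 to 63.7 (median 55.9, mean 56.2). *Scd2* stood above every other member in all WT mice, whereas the ranges of *Scd1* and *Hmgcs1* overlapped, so these neighbours do not differ beyond their spread. At the other end, *Hsd17b7*, a keto-sterol reductase, ranged from 2.50 to 6.42 (median 4.63, mean 4.35) CPM per 1000 bases. *Tm7sf2*, a sterol reductase, ranged from 2.77 to 4.73 (median 3.36, mean 3.38). *Fdps*, farnesyl diphosphate synthase, was the lowest, from 0.546 to 1.05 (median 0.774, mean 0.773). The ranges of *Hsd17b7* and *Tm7sf2* overlapped, and *Fdps* lay below both in every WT mouse.

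Some members share sequence with other genes, so their counts are uncertain. *Fdps* has 4 processed pseudogenes of at least 95% identity (*Gm8163*, *Gm3571*, *Gm5873* and *Gm7979*) and shares 1124 exon bases with *Gm43738* on the same strand, and a read that fits more than one gene is not counted. *Idi1* resembles *Gm13502* and *Gm35570*, *Fdft1* resembles *Gm6781* (97.4% over 1249 bases), and *Acat2* resembles *Acat3* (97.7% over 1477 bases) and a transcript of *Tcp1* (98.7% over 445 bases). *Scd1* and *Scd2* are 95.5% alike over 623 bases. *Tm7sf2* shares 532 exon bases with *Vps51* on the same strand. On the opposite strand, *Fdft1* shares 774 exon bases with *Ctsb*, *Scap* 985 with *5830462I19Rik*, *Lss* 381 with *4930483K19Rik*, *Cyp51* 166 with *Akap9* and *Srebf1* 109 with *Rai1*. Other overlaps exist for *Hmgcs1* (557 bases with *Gm48342*), *Idi1* (323 with *Gm48574*), *Srebf1* (66 with *Mir6922*) and *Scd2* (61 with *Mir5114*). Reads that matched several places made up 9.89% of the B6 libraries on average, 12.0% in CAST, 11.93% in PWK and 9.694% in WSB.

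The comparison of *APP/PS1* with WT mice asks how the pathway stands in brains with the transgenes. Most members had log2 fold changes slightly above 0 in every strain, few of which passed the threshold in B6 and WSB. In B6, 3 of 30 members passed the threshold, all higher, where 0.224% of all genes passed and 0.215% were higher. In CAST, 7 members passed, all higher, against 0.658% of all genes with 0.544% higher. In WSB, 3 members passed, all higher, against 0.375% with 0.308% higher. In PWK, 8 members passed, all higher, against 2.04% with 1.57% higher. At an unadjusted p under 0.05 the counts were 14, 13, 16 and 18 of 30 members in B6, CAST, WSB and PWK, and 1330, 1848, 1826 and 2836 of 23702 genes.

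The median log2 fold change of the 30 members was 0.095 for B6, 0.075 for CAST, 0.089 for WSB and 0.091 for PWK. All genes tested together gave -0.0036, -0.0034, 0 and -0.0045. Members with a log2 fold change above 0 numbered 25, 27, 26 and 24 in the same order, against 11300, 11378, 11829 and 11358 of 23702 genes. The 4 responses have separate WT mice. In all 4 strains 20 of 30 members (66.7%) had a value above 0, against 1962 genes or 8.28% of all, and only *Scap* among the members was below 0 in all 4, as were 1992 of all genes. In bulk tissue, more cells of a type and more RNA per cell cannot be told apart.

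**Figure D1:**
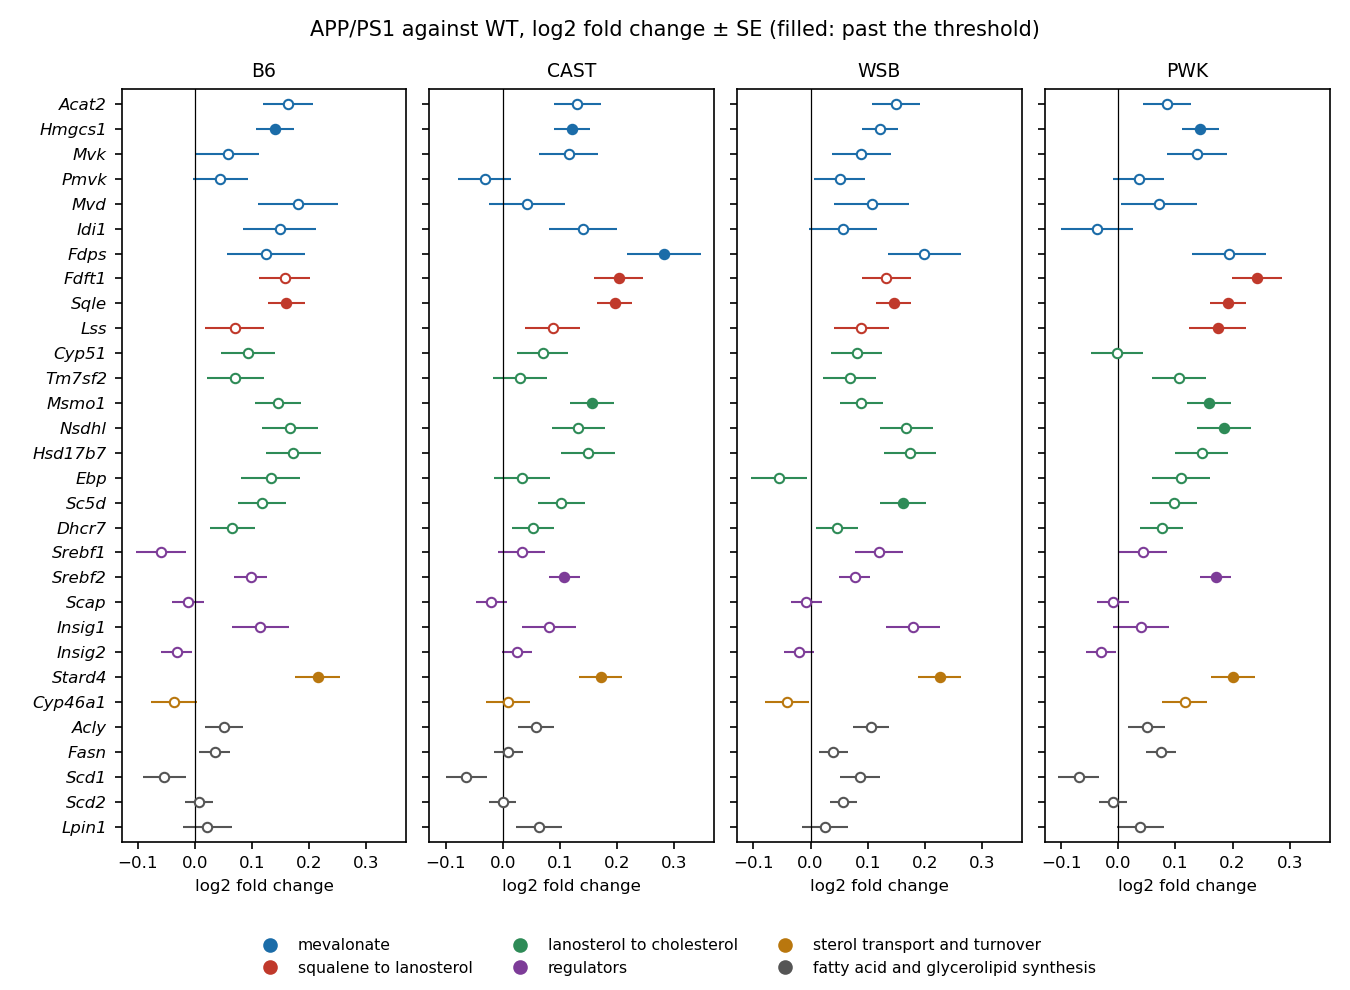
Difference between *APP/PS1* and WT mice for the 30 members in each strain, as log2 fold change with its standard error, coloured by role. Filled points passed the adjusted threshold of 0.05, which 3 members did for B6, 7 for CAST, 3 for WSB and 8 for PWK, all to the right of 0.

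A score per mouse, the mean log2 CPM of the 30 members with each gene centred on its mean over all mice, put these shifts on the scale of single animals. In B6 it ranged from -0.11 to 0.11 (median -0.016) in WT mice and from 0.0066 to 0.16 (median 0.091) in *APP/PS1* mice. In CAST the WT mice ranged from -0.17 to -0.082 (median -0.12) and the *APP/PS1* mice from -0.12 to 0.078 (median -0.042). All 10 B6.*APP/PS1* mice and all 12 CAST.*APP/PS1* mice scored above the WT median of their strain, and 3 and 8 of them above the highest WT mouse. The WT mice of B6 had a mean score of -0.056 in females and 0.051 in males, and only 4 of 6 *APP/PS1* males lay above the median of the WT males. In WSB the score ranged from -0.16 to 0.065 (median -0.015) in WT and from -0.052 to 0.15 (median 0.071) in *APP/PS1* mice. In PWK it ranged from -0.11 to 0.053 (median 0.0027) and from 0.00090 to 0.18 (median 0.071). There, 10 of 12 WSB and 11 of 12 PWK mice with the transgenes were above the WT median, 6 and 7 of them above the highest WT mouse, and the genotypes overlapped in every strain.

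The difference of the mean score was 0.085, 0.083, 0.091 and 0.091 for B6, CAST, WSB and PWK, where the SD between mice of a group was 0.054. Within females it was 0.13, 0.052, 0.072 and 0.086, and within males 0.039, 0.11, 0.11 and 0.096, so that B6 males and CAST females differed by less than that SD. Over all genes the same difference was -0.00027, -0.0044, 0.018 and -0.013. Within the library blocks the score difference was positive in all 9 cases. In CAST it was 0.086, 0.015 and 0.090 in blocks 1 to 3, the second resting on 1 *APP/PS1* mouse. In WSB it was 0.12, 0.063 and 0.056, and in PWK 0.11, 0.12 and 0.049. In fits within blocks, members with a log2 fold change above 0 numbered 26, 16 and 25 of 30 in CAST, beside 11996, 11313 and 11669 of 23702 genes. In WSB they numbered 26, 24 and 20, beside 11804, 12108 and 12393 genes, and in PWK 26, 24 and 18, beside 11574, 12060 and 11112 genes. The genotype groups of these fits held 1 to 7 mice, too few for a missing call to tell anything, and the only calls were 2 and 3 members in PWK blocks 1 and 2, beside 0.253% and 0.346% of all genes.

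The steps from farnesyl diphosphate through squalene to lanosterol showed the largest median of the role groups in all 4 strains, with log2 fold changes of 0.16 (B6), 0.20 (CAST), 0.13 (WSB) and 0.19 (PWK) over the 3 genes. Next came the mevalonate genes in B6 (0.14), CAST (0.12) and WSB (0.11), and sterol transport and turnover in PWK (0.16). Differences between role groups were not tested. *Sqle*, squalene epoxidase, a rate-limiting enzyme of sterol synthesis, rose in every strain. In B6 it ranged from 60.4 to 71.4 CPM with a median of 64.9 in 12 WT mice, and from 68.0 to 78.4 with a median of 73.1 in 10 *APP/PS1* mice. In CAST it ranged from 49.4 to 57.5 CPM with a median of 53.5 in 12 WT mice, and from 54.2 to 68.3 with a median of 60.7 in 12 *APP/PS1* mice. Here 10 of 10 *APP/PS1* mice were above the WT median and 7 above the highest WT mouse in B6, and in CAST 12 of 12 *APP/PS1* mice were above the WT median and 9 above the highest WT mouse. In WSB *Sqle* ranged from 62.9 to 77.9 CPM with a median of 72.5 in 12 WT mice, and from 71.3 to 85.3 with a median of 80.6 in 12 *APP/PS1* mice. In PWK it ranged from 63.0 to 76.3 CPM with a median of 69.8 in 11 WT mice, and from 75.1 to 87.2 with a median of 78.8 in 12 *APP/PS1* mice. The separation was widest in PWK, where 12 of 12 *APP/PS1* mice were above the WT median and 11 above the highest WT mouse, and in WSB 10 of 12 *APP/PS1* mice were above the WT median and 8 above the highest WT mouse. *Sqle* was higher in B6.*APP/PS1* mice by 1.12-fold, log2 fold change 0.16, SE 0.0326, adjusted p = 0.00420. In CAST the values were 1.15-fold, log2 fold change 0.20, SE 0.0309, adjusted p = 6.71e-06, in WSB 1.11-fold, log2 fold change 0.15, SE 0.0307, adjusted p = 0.00446, and in PWK 1.14-fold, log2 fold change 0.19, SE 0.0315, adjusted p = 7.85e-06.

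*Fdft1*, squalene synthase, which commits farnesyl diphosphate to sterols, rose in CAST and PWK. In CAST it ranged from 64.9 to 83.9 CPM with a median of 74.0 in 12 WT mice, and from 75.9 to 98.05 with a median of 87.3 in 12 *APP/PS1* mice. Its PWK values ran from 74.5 to 98.7 CPM with a median of 89.3 in 11 WT mice, and from 98.2 to 117 with a median of 103 in 12 *APP/PS1* mice. The genotypes overlapped in part of the range, and 12 of 12 *APP/PS1* mice were above the WT median and 9 above the highest WT mouse in CAST, and 12 of 12 *APP/PS1* mice were above the WT median and 10 above the highest WT mouse in PWK. The difference in CAST was 1.15-fold, log2 fold change 0.20, SE 0.0426, adjusted p = 0.00247, and in PWK 1.18-fold, log2 fold change 0.24, SE 0.0436, adjusted p = 6.59e-05. In B6 and WSB *Fdft1* had log2 fold changes of 0.16 (adjusted p = 0.192) and 0.13 (adjusted p = 0.232). *Lss*, lanosterol synthase, which closes the sterol rings, was named after its values were seen. In PWK it ranged from 49.0 to 61.9 CPM with a median of 52.4 in 11 WT mice, and from 51.6 to 70.6 with a median of 61.1 in 12 *APP/PS1* mice. The genotypes share much of that range, and 10 of 12 *APP/PS1* mice were above the WT median and 5 above the highest WT mouse. *Lss* passed the threshold in PWK (1.13-fold, log2 fold change 0.17, SE 0.0491, adjusted p = 0.0360), but the call was lost with the library block (0.0672), without the count filter (0.0503) and in a fit of the PWK mice alone (0.0733), and the adjusted p was 0.0777, 0.0743 and 0.0779 without PWK WT female replicates 1, 4 and 5 in turn.

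Of the 7 mevalonate genes, which build farnesyl diphosphate from acetyl-CoA, 1 passed the threshold for B6, 2 for CAST, 0 for WSB and 1 for PWK, and 7, 6, 7 and 6 had log2 fold changes above 0. For WSB, where edgeR's test called none, 3 had an unadjusted p under 0.05 and DESeq2 called *Hmgcs1*, with an adjusted p of 0.0354 (0.0575 by edgeR, and 0.0476 without the pair of B6 mice). *Hmgcs1*, the synthase that makes HMG-CoA, the last intermediate before mevalonate, is the most abundant of them per length. In B6 *Hmgcs1* ranged from 242 to 289 CPM with a median of 256 in 12 WT mice, and from 259 to 319 with a median of 291 in 10 *APP/PS1* mice. In PWK it ranged from 235 to 293 CPM with a median of 263 in 11 WT mice, and from 275 to 309 with a median of 293 in 12 *APP/PS1* mice. The genotypes overlapped, although 10 of 10 *APP/PS1* mice were above the WT median and 6 above the highest WT mouse in B6, and in PWK 12 of 12 *APP/PS1* mice were above the WT median and 6 above the highest WT mouse. The difference was log2 fold change 0.14, SE 0.0333, adjusted p = 0.0344 in B6 and log2 fold change 0.14, SE 0.0322, adjusted p = 0.00290 in PWK. The B6 call rests on few mice: the adjusted p was 0.153 and 0.102 without *APP/PS1* female replicates 1 and 4 in turn, and 0.0928 without the pair of B6 mice named above. The log2 fold change itself stayed between 0.127 and 0.157 under all alternatives. *Hmgcs1* also passed in CAST (named after its values were seen; log2 fold change 0.12, adjusted p = 0.0385, and 0.0571 without the count filter).

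*Fdps*, which makes farnesyl diphosphate, the branch point to sterols and isoprenoids, passed in CAST. There it ranged from 2.30 to 3.15 CPM with a median of 2.63 in 12 WT mice, and from 2.83 to 3.67 with a median of 3.22 in 12 *APP/PS1* mice. In that strain 12 of 12 *APP/PS1* mice were above the WT median and 8 above the highest WT mouse, with overlap in between. The difference of *Fdps* in CAST was 1.22-fold, log2 fold change 0.28, SE 0.0647, adjusted p = 0.00866, and its shared sequence with pseudogenes makes the level uncertain. Its log2 fold changes in B6, WSB and PWK were 0.12, 0.20 and 0.19. *Acat2*, the thiolase of the entry step, had 0.16, 0.13, 0.15 and 0.086 in B6, CAST, WSB and PWK. Without the pair of B6 mice *Acat2* passed in B6 and WSB, with adjusted p-values of 0.0311 and 0.0416 in place of 0.119 and 0.0931. The kinases *Mvk* and *Pmvk*, the decarboxylase *Mvd* and the isomerase *Idi1* passed in no strain under edgeR's test, with log2 fold changes from -0.037 (*Idi1* in PWK) to 0.18 (*Mvd* in B6). At an unadjusted p under 0.05 these 4 genes gave 5 of 16 cases, and DESeq2 called 0.

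The 8 enzymes from lanosterol to cholesterol had log2 fold changes above 0 in 8 cases for B6, 8 for CAST, 7 for WSB and 7 for PWK, with medians of 0.12, 0.086, 0.085 and 0.11. Past the threshold were 0, 1, 1 and 2. In B6, where edgeR's test called none of them, 5 had an unadjusted p under 0.05 and DESeq2 called 0. *Msmo1*, an oxidase in the removal of methyl groups from the sterol ring, rose in CAST and PWK. In CAST it ranged from 53.7 to 62.2 CPM with a median of 57.1 in 12 WT mice, and from 56.6 to 72.6 with a median of 64.9 in 12 *APP/PS1* mice. Its PWK values ran from 58.1 to 70.9 CPM with a median of 66.7 in 11 WT mice, and from 67.1 to 83.1 with a median of 71.5 in 12 *APP/PS1* mice. In CAST, 11 of 12 *APP/PS1* mice were above the WT median and 8 above the highest WT mouse, and in PWK 12 of 12 *APP/PS1* mice were above the WT median and 8 above the highest WT mouse, so the genotypes overlapped. The differences were 1.11-fold, log2 fold change 0.16, SE 0.0380, adjusted p = 0.0188 in CAST and, named there after its values were seen, 1.12-fold, log2 fold change 0.16, SE 0.0388, adjusted p = 0.00844 in PWK.

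*Sc5d*, a sterol desaturase near the end of the pathway, passed in WSB. It ranged there from 35.6 to 46.5 CPM with a median of 42.6 in 12 WT mice, and from 40.4 to 56.5 with a median of 44.8 in 12 *APP/PS1* mice. The genotypes overlapped, and 10 of 12 *APP/PS1* mice were above the WT median and 4 above the highest WT mouse. The difference was 1.12-fold, log2 fold change 0.16, SE 0.0402, adjusted p = 0.0352, and the adjusted p was 0.291 in a fit of only the WSB mice and, separately, 0.0777 in the fit of all mice with the library-number block. The log2 fold change of *Sc5d* stayed between 0.157 and 0.162 under all alternatives. *Nsdhl*, the dehydrogenase that follows *Msmo1* in the removal of methyl groups, was singled out in PWK after its values were seen. In PWK *Nsdhl* ranged from 20.3 to 26.6 CPM with a median of 23.0 in 11 WT mice, and from 23.5 to 29.7 with a median of 27.3 in 12 *APP/PS1* mice. Again the genotypes overlapped, and 12 of 12 *APP/PS1* mice were above the WT median and 8 above the highest WT mouse. *Nsdhl* differed in PWK by 1.14-fold, log2 fold change 0.19, SE 0.0475, adjusted p = 0.0143. *Hsd17b7*, the reductase that works with *Nsdhl*, had log2 fold changes of 0.17, 0.15, 0.17 and 0.15 in B6, CAST, WSB and PWK, with adjusted p-values of 0.158, 0.169, 0.0637 and 0.0901. Without B6.*APP/PS1* female replicate 2 the adjusted p of *Hsd17b7* in B6 was 0.0436, and without the pair of B6 mice it was 0.0316 in WSB and 0.0493 in PWK. DESeq2 called *Hsd17b7* and *Nsdhl* in WSB, with adjusted p-values of 0.0392 and 0.0424 (*Nsdhl* by edgeR 0.0862). The demethylase *Cyp51*, the reductases *Tm7sf2* and *Dhcr7* and the isomerase *Ebp* passed in no strain under edgeR's test, with log2 fold changes from -0.056 (*Ebp* in WSB) to 0.13 (*Ebp* in B6). At an unadjusted p under 0.05 these gave 4 of 16 cases, and DESeq2 called 0.

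Among the 5 regulators, *Srebf2*, which encodes the SREBP factor of sterol genes and is itself a sterol-regulated gene, rose in PWK. It ranged in PWK from 208 to 250.03 CPM with a median of 233 in 11 WT mice, and from 244 to 278 with a median of 264 in 12 *APP/PS1* mice. Nearly the whole *APP/PS1* group stood apart, since 12 of 12 *APP/PS1* mice were above the WT median and 11 above the highest WT mouse. The difference was 1.13-fold, log2 fold change 0.17, SE 0.0275, adjusted p = 5.94e-06. In CAST, where it was singled out after its values were seen, *Srebf2* ranged from 193 to 235 CPM with a median of 215 in 12 WT mice, and from 222 to 253 with a median of 232 in 12 *APP/PS1* mice. The genotypes overlapped there, and 12 of 12 *APP/PS1* mice were above the WT median and 5 above the highest WT mouse. The CAST difference was log2 fold change 0.11, SE 0.0268, adjusted p = 0.0245, and the adjusted p was 0.0518 without the count filter and 0.0718 in a fit of the CAST mice alone. In B6 and WSB the log2 fold changes of *Srebf2* were 0.097 and 0.077, with adjusted p-values of 0.214 and 0.316. *Insig1*, a sterol-induced brake on SREBP export, had log2 fold changes of 0.11, 0.080, 0.18 and 0.040 in B6, CAST, WSB and PWK. In WSB DESeq2 called *Insig1* (adjusted p = 0.0315, by edgeR 0.0637). *Srebf1*, the SREBP gene of fatty acid synthesis, had -0.060, 0.033, 0.12 and 0.043. *Scap*, the escort protein, stayed between -0.020 and -0.0077, and *Insig2* between -0.032 and 0.025. *Scap* lies on chromosome 9, 1.68 Mb from *Arpp21*, the gene next to the transgene insertion, and *Sc5d* lies 69.8 Mb from it on the same chromosome. Whether the backcrossed mice carry B6 sequence at these genes was not tested.

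*Stard4*, which carries cholesterol between membranes in the cytosol, rose in all 4 strains. In B6 it ranged from 39.5 to 55.9 CPM with a median of 47.8 in 12 WT mice, and from 48.5 to 61.4 with a median of 57.4 in 10 *APP/PS1* mice. In CAST it ranged from 43.7 to 53.1 CPM with a median of 48.4 in 12 WT mice, and from 50.6 to 63.1 with a median of 53.4 in 12 *APP/PS1* mice. Of these, 10 of 10 *APP/PS1* mice were above the WT median and 6 above the highest WT mouse in B6, and in CAST 12 of 12 *APP/PS1* mice were above the WT median and 8 above the highest WT mouse. In WSB *Stard4* ranged from 45.8 to 57.8 CPM with a median of 52.7 in 12 WT mice, and from 57.3 to 66.5 with a median of 61.8 in 12 *APP/PS1* mice. Its PWK values ran from 42.9 to 51.6 CPM with a median of 46.9 in 11 WT mice, and from 51.5 to 57.2 with a median of 53.9 in 12 *APP/PS1* mice. In both WSB and PWK the genotypes met only at the edge, with 12 of 12 *APP/PS1* mice above the WT median and 11 above the highest WT mouse. In B6 *Stard4* differed by 1.16-fold, log2 fold change 0.21, SE 0.0398, adjusted p = 6.86e-04, though in a fit of the B6 mice alone the adjusted p was 0.0954. In CAST it differed by 1.13-fold, log2 fold change 0.17, SE 0.0376, adjusted p = 0.00485, in WSB by 1.17-fold, log2 fold change 0.23, SE 0.0375, adjusted p = 3.80e-05, and in PWK by 1.15-fold, log2 fold change 0.20, SE 0.0385, adjusted p = 2.28e-04. *Cyp46a1*, the neuronal hydroxylase through which the brain disposes of cholesterol, had log2 fold changes of -0.037, 0.0089, -0.042 and 0.12 in B6, CAST, WSB and PWK. In PWK *Cyp46a1* had an adjusted p of 0.117, of 0.0280 in the fit without the pair of B6 mice and of 0.0412 in the PWK mice alone.

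**Figure D2:**
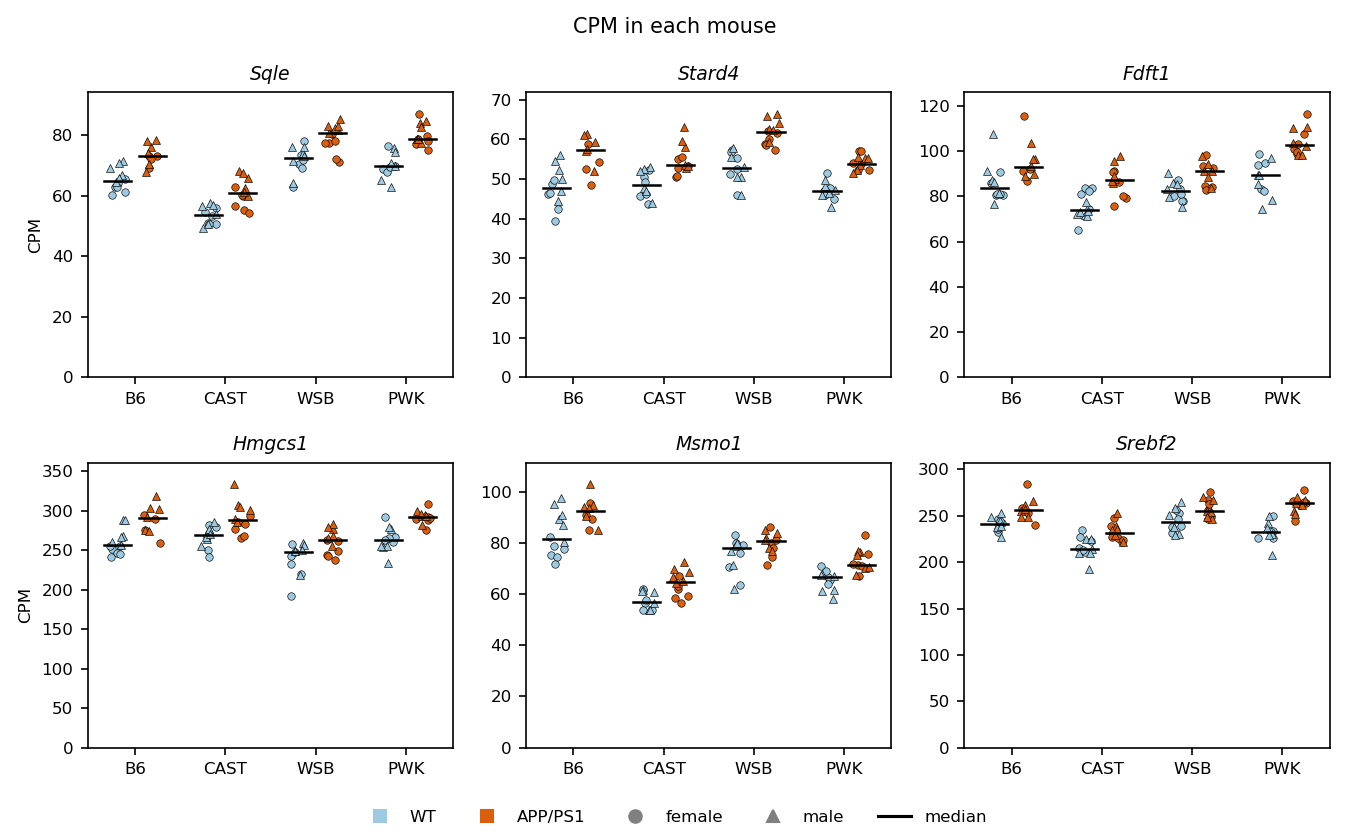
CPM of 6 members in each mouse, by strain and genotype, with circles for females, triangles for males and a line at each group's median. The *APP/PS1* medians lie above the WT medians in every panel and strain, and the groups overlap, as for *Sqle* in B6 with 60.4 to 71.4 CPM in WT and 68.0 to 78.4 CPM in *APP/PS1* mice.

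The 5 genes of fatty acid and glycerolipid synthesis passed in no strain under edgeR's test, at unadjusted p under 0.05 in 0 cases for B6, 0 for CAST, 3 for WSB and 1 for PWK, and DESeq2 called 0. Their median log2 fold changes were 0.022, 0.0094, 0.057 and 0.038 for B6, CAST, WSB and PWK. *Acly*, which splits citrate to supply acetyl-CoA to both pathways, had log2 fold changes of 0.051, 0.058, 0.11 and 0.050 in B6, CAST, WSB and PWK. *Fasn*, fatty acid synthase, ran from 0.0094 in CAST to 0.074 in PWK. The desaturase *Scd1* ran from -0.070 in PWK to 0.087 in WSB, *Scd2* from -0.0089 in PWK to 0.057 in WSB, and *Lpin1*, a phosphatidate phosphatase, from 0.022 in B6 to 0.064 in CAST. The highest member of the brain per length, *Scd2*, thus ranged in PWK from 1816 to 2085 CPM with a median of 1963 in 11 WT mice, and from 1859.5 to 2050.3 with a median of 1919 in 12 *APP/PS1* mice, with the genotypes overlapping almost fully.

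The response averaged over the 4 strains, chosen after seeing the responses of the single strains, brought 15 of 30 members past the threshold, all higher, against 2.27% of all genes, with 1.8% higher. At an unadjusted p under 0.05 there were 22 members and 2736 genes, and 27 members and 10906 genes had a log2 fold change above 0. The median over the members was 0.088, against -0.0042 over all genes. *Sqle* (log2 fold change 0.17, SE 0.0157, adjusted p = 3.17e-15) and *Stard4* (log2 fold change 0.20, SE 0.0192, adjusted p = 2.13e-14) had the smallest p-values. They were followed by *Fdft1* (log2 fold change 0.18, SE 0.0217, adjusted p = 2.74e-10), *Srebf2* (log2 fold change 0.11, SE 0.0137, adjusted p = 6.23e-10) and *Hmgcs1* (log2 fold change 0.13, SE 0.0160, adjusted p = 8.37e-10). The late enzymes *Msmo1* (log2 fold change 0.14, SE 0.0193, adjusted p = 8.67e-08), *Nsdhl* (log2 fold change 0.16, SE 0.0237, adjusted p = 2.18e-07), *Hsd17b7* (log2 fold change 0.16, SE 0.0234, adjusted p = 2.69e-07) and *Sc5d* (log2 fold change 0.12, SE 0.0205, adjusted p = 1.38e-05) also passed. So did the mevalonate genes *Acat2* (log2 fold change 0.13, SE 0.0211, adjusted p = 2.96e-06), *Fdps* (log2 fold change 0.20, SE 0.0326, adjusted p = 4.73e-06) and *Mvk* (log2 fold change 0.10, SE 0.0263, adjusted p = 0.0176). The last were *Insig1* (log2 fold change 0.10, SE 0.0242, adjusted p = 0.00424), *Lss* (log2 fold change 0.10, SE 0.0245, adjusted p = 0.00437) and *Acly* (log2 fold change 0.066, SE 0.0160, adjusted p = 0.00648), the only fatty acid gene among the 15. *Dhcr7* had an adjusted p of 0.0727, and of 0.0378 without B6.*APP/PS1* female replicate 3.

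By role, the averaged response called 4 of 7 mevalonate genes, 3 of 3 from squalene to lanosterol, 4 of 8 from lanosterol to cholesterol, 2 of 5 regulators, 1 of 2 of transport and turnover, and 1 of 5 of fatty acid synthesis. The score difference over the 4 strains was 0.088 for all members, and by role 0.11, 0.15, 0.10, 0.045, 0.11 and 0.027 in that order.

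An effect past the threshold in one strain and not in another was tested as a difference of the responses. By edgeR's quasi-likelihood test, 0 of 30 members had a response that differed between strains, against 0.473% of all genes. At an unadjusted p under 0.05 there were 4 members and 2046 genes, and DESeq2 also called 0 members. Named after their values were seen, these were *Scd1* (adjusted p = 0.295), *Cyp46a1* (adjusted p = 0.436), *Srebf1* (adjusted p = 0.545) and *Ebp* (adjusted p = 0.553). Nor did the response of any member differ between females and males past the threshold: 0 of 30 by edgeR's quasi-likelihood test against 0.00422% of all genes, 0 by DESeq2, and 0 members at an unadjusted p under 0.05, where 1677 genes were.

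Markers of cell types were read beside these responses, in which 0.224%, 0.658%, 0.375% and 2.04% of all genes passed in B6, CAST, WSB and PWK. Of 9 microglial markers, 3 passed for B6, 3 for CAST, 4 for WSB and 7 for PWK, all higher, with median log2 fold changes of 0.22, 0.19, 0.19 and 0.41. Their summed level had medians of 216, 152, 155 and 189 CPM in WT mice of B6, CAST, WSB and PWK, and of 245, 183, 186 and 249 in *APP/PS1* mice, with *Ctss* the most abundant. The medians of the microglial sum and of the member score were thus both higher in *APP/PS1* mice of each strain. The same held for the median of the neuronal sum, given below. Of 9 astrocyte markers 1 passed in each strain, *Gfap* (log2 fold changes 0.51, 0.36, 0.48 and 0.36). The astrocyte sum, led by *Slc1a2*, had medians of 5239.9, 5663, 4948 and 5467 CPM in WT and 5542, 5655, 5191 and 5446 CPM in *APP/PS1* mice. The pair of B6 mice named above lay at the ends of their genotypes in both sums. WT male replicate 5 and *APP/PS1* female replicate 2 had the lowest astrocyte sums of their genotypes in B6, 4269 and 4656 CPM. Their microglial sums, 253 and 318 CPM, were the highest, but WT female replicate 3 was level with the WT male at 252.8 CPM.

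Of 12 oligodendrocyte markers, led by *Mbp*, edgeR's test called 0 in the 4 responses, with 1, 0, 2 and 6 at an unadjusted p under 0.05. Their sum had medians of 6971, 4318, 4629 and 4505 CPM in WT and 6615, 4185, 4926 and 4173 in *APP/PS1* mice, lower with the transgenes in B6, CAST and PWK and higher in WSB. Of 10 neuronal markers, led by *Snap25*, 0 were called (2, 1, 3 and 2 unadjusted), and their sums had medians of 6695, 6377, 6679 and 6813 CPM in WT and 6743, 6459, 6705 and 6973 CPM in *APP/PS1* mice. For 6 endothelial markers, led by *Flt1*, 0 were called (0, 1, 0 and 2 unadjusted), with medians of 237, 177, 185 and 205 against 230.4, 179, 194 and 192 CPM. Among 5 choroid plexus markers, led by *Ttr*, 0 were called (0 in each strain unadjusted), with medians of 480.4, 435, 455 and 364 against 447, 456, 462 and 365 CPM. For 5 blood markers, led by *Hbb-bs*, 0 were called (0 in each strain unadjusted), with medians of 32.8, 30.8, 20.4 and 45.5 against 40.4, 23.1, 28.7 and 33.3 CPM. No listed marker was at 0 in every mouse, and 1 endothelial marker was at 0 in some mouse. The part of cell composition in the response of the members was not tested.

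The WT comparisons ask how the strains differ before any transgene. They share WT mice with each other, so each is given by its own values. Many members differed between strains, as did many genes of the brain. WT CAST and B6 differed in 19 of 30 members (5 higher and 14 lower in CAST), against 61.4% of all genes, WSB and B6 in 14 (5 higher, 9 lower) against 47.5%, and PWK and B6 in 20 (11 higher, 9 lower) against 59.2%. CAST and PWK differed in 19 (4 higher, 15 lower in CAST) against 54.8%, WSB and PWK in 23 (8 higher, 15 lower in WSB) against 54.5%, and CAST and WSB in 20 (6 higher, 14 lower in CAST) against 54.2%. Against B6 and between CAST and PWK the shares are not far from those of all genes, and in WSB to PWK and CAST to WSB they are above them. All genes include many below the level of the lowest member, and these shares were neither taken at matched levels nor tested. Median log2 fold changes of the members were -0.059, -0.019, 0.030, -0.098, -0.094 and -0.064 in the same order, and over all genes 0.0027, 0, -0.0040, 0.0010, -0.0011 and 0.0023. The member score was lowest in CAST, with differences of -0.12 from B6 (-0.14 to -0.078 under other settings), -0.11 from PWK (-0.13 to -0.10) and -0.099 from WSB (-0.10 to -0.060). WSB differed from B6 by -0.023 (-0.042 to -0.017) and from PWK by -0.011 (-0.040 to -0.0012), and the PWK to B6 difference of -0.013 turned sign (-0.022 to 0.023).

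Ranges of the WT mice did not overlap for 7 members between CAST and B6 (*Pmvk*, *Sqle*, *Lss*, *Msmo1*, *Hsd17b7*, *Sc5d* and *Scd2*), where 15.3% of all genes did not. For WSB and B6 these were 4 (*Idi1*, *Sc5d*, *Scd1* and *Scd2*) against 8.24%, and for PWK and B6 3 (*Msmo1*, *Cyp46a1* and *Scd2*) against 15.3%. For CAST and PWK they were 7 (*Pmvk*, *Idi1*, *Sqle*, *Lss*, *Hsd17b7*, *Ebp* and *Sc5d*) against 14.3%. For WSB and PWK they were 3 (*Pmvk*, *Idi1* and *Ebp*) against 15%, and for CAST and WSB 4 (*Pmvk*, *Sqle*, *Lss* and *Tm7sf2*) against 14.4%.

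Among the mevalonate genes, *Pmvk*, phosphomevalonate kinase, and *Idi1*, the isomerase that feeds the chain-lengthening steps, spread most between strains. *Pmvk* ranged from 23.3 to 34.0 CPM (median 25.0) in 12 B6 WT mice and from 11.3 to 14.9 CPM (median 13.0) in 12 CAST mice. It ranged from 22.0 to 28.0 CPM (median 23.9) in 12 WSB mice and from 33.4 to 42.2 CPM (median 37.8) in 11 PWK mice. CAST was below every other strain without overlap, PWK was above CAST and WSB without overlap, and B6 overlapped with both WSB and PWK. For *Pmvk* the CAST to B6 comparison gave 0.508-fold, log2 fold change -0.98, SE 0.0458, adjusted p = 4.43e-34. PWK exceeded B6 by 1.47-fold, log2 fold change 0.55, SE 0.0454, adjusted p = 3.84e-19. CAST to PWK gave 0.346-fold, log2 fold change -1.53, SE 0.0467, adjusted p = 1.56e-47, WSB to PWK 0.639-fold, log2 fold change -0.65, SE 0.0456, adjusted p = 9.93e-23, and CAST to WSB 0.542-fold, log2 fold change -0.88, SE 0.0459, adjusted p = 4.69e-31.

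*Idi1* ranked the strains in another order. It ranged from 11.3 to 17.1 CPM (median 14.0) in B6 and from 16.8 to 23.6 CPM (median 21.0) in CAST. It ranged from 19.2 to 28.4 CPM (median 24.3) in WSB and from 7.44 to 12.0 CPM (median 9.46) in PWK. CAST and WSB were high and overlapped, B6 overlapped at its edges with CAST and with PWK, and no PWK mouse reached the lowest CAST or WSB mouse. For *Idi1* CAST exceeded B6 (log2 fold change 0.59, SE 0.0601, adjusted p = 1.31e-14), and WSB exceeded B6 by 1.75-fold, log2 fold change 0.81, SE 0.0601, adjusted p = 3.35e-21. PWK to B6 gave 0.671-fold, log2 fold change -0.58, SE 0.0630, adjusted p = 2.58e-13. CAST exceeded PWK by 2.24-fold, log2 fold change 1.16, SE 0.0630, adjusted p = 8.23e-30, and WSB exceeded PWK by 2.62-fold, log2 fold change 1.39, SE 0.0632, adjusted p = 6.60e-35. The other 5 mevalonate genes had log2 fold changes between -0.46 (*Fdps*, CAST to PWK) and 0.26 (*Mvd*, PWK to B6).

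**Figure D3:**
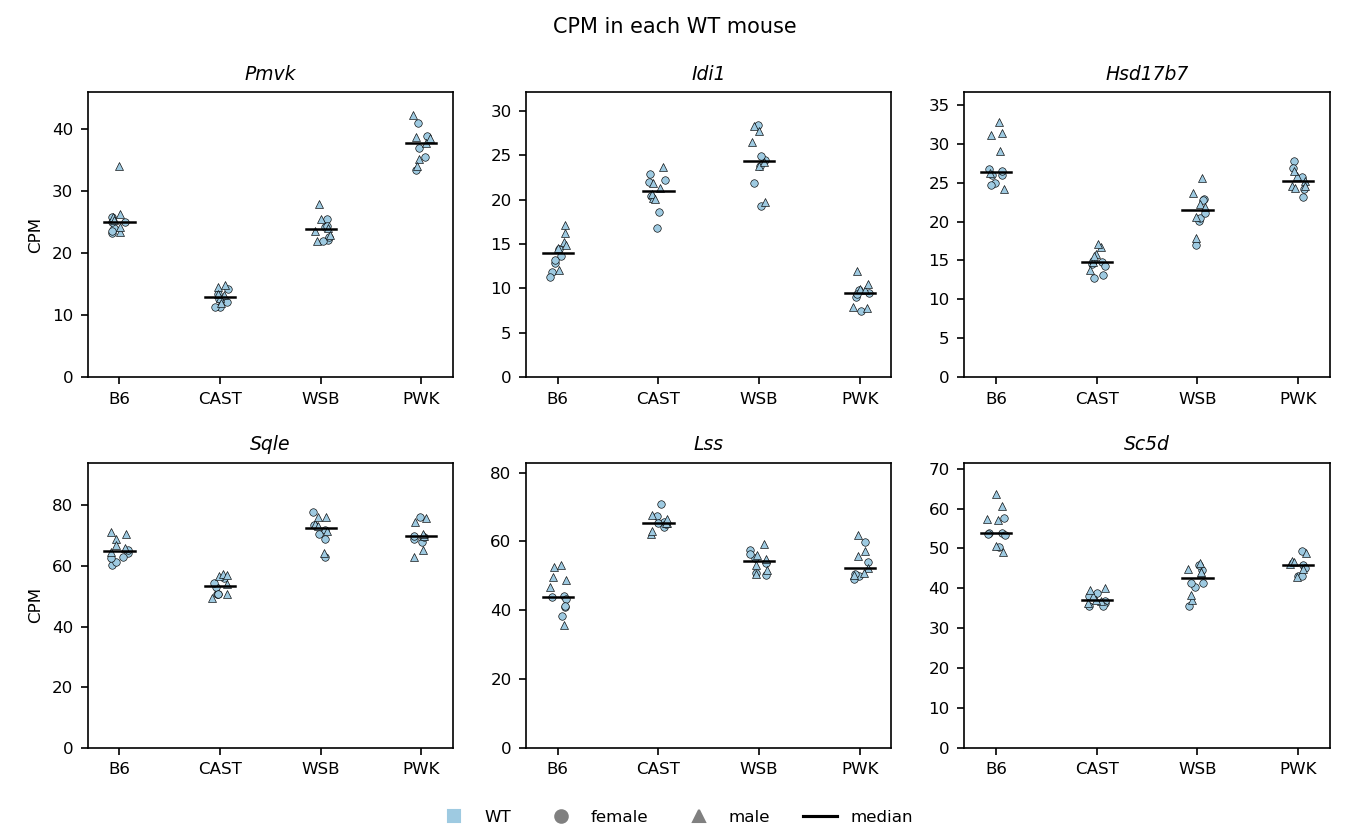
CPM of 6 members in each WT mouse of the 4 strains, with circles for females, triangles for males and a line at each median. CAST is lowest for *Pmvk*, *Hsd17b7*, *Sqle* and *Sc5d* and highest for *Lss*, and PWK is lowest for *Idi1*, with a median of 9.46 CPM against 24.3 CPM in WSB.

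From squalene to lanosterol, *Sqle* and *Lss* stood at opposite ends in CAST. *Sqle* ranged from 49.4 to 57.5 CPM (median 53.5) in CAST WT mice and from 62.9 to 77.9 CPM (median 72.5) in WSB WT mice. The strains did not overlap, and the CAST to WSB comparison gave 0.744-fold, log2 fold change -0.43, SE 0.0309, adjusted p = 4.92e-22. *Lss*, singled out after its values were seen, ranged from 62.3 to 71.0 CPM (median 65.4) in CAST WT mice, from 35.5 to 53.1 CPM (median 43.9) in B6, from 50.2 to 59.4 CPM (median 54.3) in WSB and from 49.0 to 61.9 CPM (median 52.4) in PWK. CAST was above B6, WSB and PWK with no overlap, with log2 fold changes of 0.56, 0.28 and 0.29. *Fdft1* was lower in CAST than in B6, PWK and WSB, with log2 fold changes of -0.18, -0.22 and -0.12.

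Of the 8 enzymes from lanosterol to cholesterol, WT CAST mice had 5 lower and 1 higher than B6, WSB 4 lower and 1 higher, and PWK 5 lower and 1 higher, beside 61.4%, 47.5% and 59.2% of all genes that passed in either direction. Their score differed from that of B6 by -0.30, -0.11 and -0.13. *Hsd17b7* ranged from 24.2 to 32.7 CPM (median 26.3) in B6 and from 12.8 to 17.1 CPM (median 14.8) in CAST. In WSB it ranged from 17.0 to 25.6 CPM (median 21.5), and in PWK from 23.1 to 27.7 CPM (median 25.2). CAST was low, without overlap with B6 or PWK and with a slight overlap with WSB. The *Hsd17b7* call between PWK and B6 (adjusted p = 0.0328) was lost without PWK WT female replicates 1 and 4 in turn (0.0647 and 0.0852). *Hsd17b7* gave 0.541-fold, log2 fold change -0.89, SE 0.0464, adjusted p = 8.36e-31 for CAST to B6. CAST to PWK gave 0.585-fold, log2 fold change -0.77, SE 0.0473, adjusted p = 2.00e-26, and CAST to WSB 0.695-fold, log2 fold change -0.52, SE 0.0465, adjusted p = 2.26e-17. *Sc5d* ranged from 49.1 to 63.8 CPM (median 53.8) in B6 and from 35.6 to 46.5 CPM (median 42.6) in WSB. The strains did not overlap, and WSB to B6 gave 0.762-fold, log2 fold change -0.39, SE 0.0402, adjusted p = 2.99e-14. *Msmo1* ranged from 72.0 to 97.5 CPM (median 81.4) in B6 and from 58.1 to 70.9 CPM (median 66.7) in PWK. These did not overlap either, and PWK to B6 gave 0.788-fold, log2 fold change -0.34, SE 0.0388, adjusted p = 9.45e-13. *Ebp*, a sterol isomerase on the X chromosome, ranged from 14.0 to 17.2 CPM (median 15.4) in WSB and from 10.1 to 13.0 CPM (median 12.1) in PWK. WSB lay wholly above PWK, with 1.31-fold, log2 fold change 0.39, SE 0.0508, adjusted p = 2.46e-10.

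Of the 5 regulators 3, 1, 2, 2, 4 and 4 passed in the WT comparisons, in the order given above, beside 61.4%, 47.5%, 59.2%, 54.8%, 54.5% and 54.2% of all genes, with log2 fold changes between -0.18 (*Srebf1*, WSB to PWK) and 0.25 (*Srebf1*, CAST to WSB). *Stard4* differed by at most 0.16 (WSB to PWK), and *Cyp46a1* was lower in PWK than in B6, with a log2 fold change of -0.29 (adjusted p = 3.81e-10). Both desaturases were highest in B6. *Scd1* ranged from 299 to 362 CPM (median 330.4) in B6 WT mice and from 215 to 279.8 CPM (median 237) in WSB WT mice. The strains did not overlap, and WSB to B6 gave 0.737-fold, log2 fold change -0.44, SE 0.0357, adjusted p = 4.46e-19. *Scd2*, singled out after its values were seen, ranged from 2091 to 2327 CPM (median 2194) in B6, from 1583 to 1846 CPM (median 1740.2) in CAST, from 1657 to 2019 CPM (median 1760.0) in WSB and from 1816 to 2085 CPM (median 1963) in PWK. B6 lay above the other strains with no overlap, with log2 fold changes of -0.36, -0.31 and -0.18 for CAST, WSB and PWK.

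Marker genes were also compared between WT strains. Of all genes 61.4% passed for CAST to B6, 47.5% for WSB to B6 and 59.2% for PWK to B6. Among the wild-derived strains 54.8% passed for CAST to PWK, 54.5% for WSB to PWK and 54.2% for CAST to WSB. Marker counts were not tested against these shares. All 12 oligodendrocyte markers were lower in CAST, WSB and PWK than in B6 past the threshold, with median log2 fold changes of -0.66, -0.59 and -0.62. Their summed level, given above, was likewise highest in B6. Of the 30 members 9 had their highest WT mean in B6, and 10 had it in PWK, 6 in WSB and 5 in CAST. Between the wild-derived strains 7 (CAST to PWK), 5 (WSB to PWK) and 8 (CAST to WSB) of the 12 passed. For the 9 microglial markers the counts were 9, 9 and 6 against B6 and 9, 7 and 6 in the same order among the wild-derived strains, and for the 9 astrocyte markers 8, 6, 6, 6, 6 and 7. Of the 10 neuronal markers 5, 4, 4, 4, 1 and 4 passed, of the 6 endothelial markers 6, 6, 5, 4, 2 and 5, of the 5 choroid plexus markers 4, 1, 4, 1, 3 and 3, and of the 5 blood markers 2, 2, 3, 1, 1 and 1. The part of cell composition in the strain differences of the members was not tested, and strain and library numbering cannot be told apart for B6.

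Within the library blocks, which hold CAST, WSB and PWK mice side by side, members were compared again. CAST and PWK differed in 11, 15 and 18 members in blocks 1, 2 and 3, beside 24.2%, 31.6% and 36.7% of all genes, with medians of -0.050, -0.10 and -0.13, against 19 members and -0.098 in the pooled fit. WSB and PWK differed in 8, 13 and 11, beside 30.9%, 29.7% and 28.7%, with medians of -0.034, -0.052 and -0.095, against 23 and -0.094. CAST and WSB differed in 11, 16 and 10, beside 33.5%, 33.9% and 25.5%, with medians of -0.072, -0.13 and -0.10, against 20 and -0.064. The blocks hold fewer mice than the pooled fit, from 2 to 7 per strain.

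WT females and males were compared because *Nsdhl* and *Ebp* lie on the X chromosome. *Nsdhl* ranged from 19.7 to 32.2 CPM (median 23.6) in 23 WT females and from 19.8 to 29.8 CPM (median 23.3) in 24 WT males. *Ebp* ranged from 10.1 to 19.4 CPM (median 14.9) in females and from 10.2 to 17.2 CPM (median 14.6) in males. The sexes overlapped almost wholly for both genes, with 1.02-fold, log2 fold change 0.024, SE 0.0333, adjusted p = 0.830 for *Nsdhl* and 1.02-fold, log2 fold change 0.022, SE 0.0353, adjusted p = 0.858 for *Ebp*. By edgeR's quasi-likelihood test 0 of 30 members differed between the sexes, against 0.456% of all genes. At an unadjusted p under 0.05 there were 10 members and 2845 genes, and DESeq2 called 1 member, *Insig1*. Of the members 8 had values above 0, that is higher in females, with a median log2 fold change of -0.038, beside 11958 of 23702 genes and a median of 0.00079. *Insig1* (log2 fold change -0.12, adjusted p = 0.0633), *Scd1* (-0.084, 0.105) and *Hsd17b7* (-0.098, 0.158), named after their values were seen, passed in the fit without the pair of B6 mice, with adjusted p-values of 0.0382, 0.0425 and 0.0471.

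Beyond group means, members varied together from mouse to mouse. The correlations that follow are descriptions over 93 mice of deviations from the 16 group means, in which the genes of a mouse share its library and depth. The mean r over the 435 pairs of members was 0.260, against 0.00076 over all pairs of the 23702 genes and 0.00718 over pairs of the 12749 genes at or above the level of the lowest member. With the library blocks also removed it was 0.246. Of the 435 pairs 372 had r above 0 and 78 above 0.5. By role the mean was 0.598 for fatty acid and glycerolipid genes, 0.328 from lanosterol to cholesterol, 0.282 from squalene to lanosterol, 0.211 for mevalonate genes and 0.186 for regulators. *Dhcr7*, the reductase of the last step, had the highest mean r with the other members (0.417), then *Nsdhl* (0.396), *Sqle* (0.394) and *Fdft1* (0.394). *Insig2* (0.0155), *Cyp46a1* (0.0887) and *Lss* (0.0968) had the lowest. The closest pairs were *Scd1* with *Scd2* (0.815), which share sequence, *Fdft1* with *Nsdhl* (0.759) and *Cyp51* with *Msmo1* (0.727). Pairs that ran against each other were *Insig2* with *Lss* (-0.490), *Idi1* with *Scap* (-0.418) and *Stard4* with *Cyp46a1* (-0.373), a carrier of cholesterol and the enzyme that disposes of it.

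**Figure D4:**
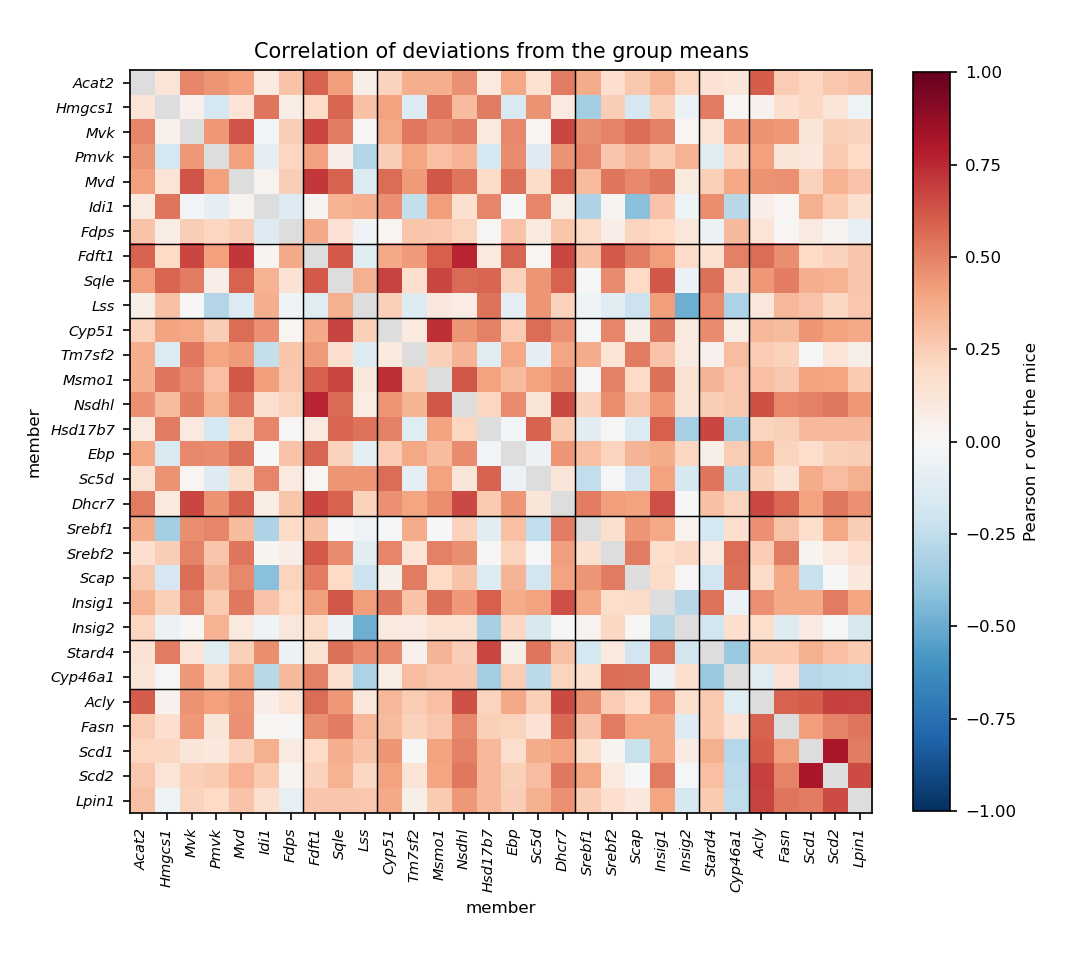
Pearson r between each pair of members over 93 mice, from deviations of log2 CPM from the 16 group means, with genes ordered by role. Red is positive and blue negative, the block of fatty acid genes has a mean r of 0.598, and the mean over all pairs is 0.260.

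Since members varied together, their promoters were searched for letters bound by known factors of sterol genes. The sterol regulatory element TCACNCCAC and the NF-Y box CCAAT were searched on both strands in the 250 bases before each start in RefSeq sequences of GRCm38.p6. Of the 30 members 24 were in the table, with 32 promoters. The entries missing were those of *Fdps*, *Fdft1*, *Sqle*, *Stard4*, *Scd1* and *Scd2*. CCAAT was found in 21 of 32 member promoters (65.6%) and 11120 of all 32851 promoters (33.8%), or for 20 of 24 member genes (83.3%) and 10133 of 27025 genes (37.5%). TCACNCCAC was found in 1 of 32 member promoters (3.13%), that of *Hmgcs1*, against 346 of all (1.05%). Both were found in 1 of 32 and in 107 of all (0.326%). A match is a description of letters, and binding was not measured.

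Promoter stretches are printed for 5 members that passed in at least one response, to show where these letters lie, which are in capitals (ATTGG is CCAAT on the other strand). They read 5′ to 3′ on the strand of the gene and come from RefSeq, build GRCm38.p6. *Hmgcs1* is at chr13:119690101-119690350 on the plus strand, with the sterol element starting 137 bases before the gene start and CCAAT on the other strand at 237, 176 and 45. *Sc5d* is at chr9:42264301-42264550 on the minus strand, with CCAAT on the other strand at 24. *Lss* is at chr10:76531355-76531587 on the plus strand, with CCAAT on the other strand at 62. *Srebf2* is at chr15:82147019-82147180 on the plus strand, with such a box at 135, and *Nsdhl* at chrX:72918412-72918520 on the plus strand, with boxes at 109 and 20. The last 3 stretches are shorter than 250 bases. Positions count back from the start in RefSeq. The printed *Lss* and *Srebf2* stretches stop short of that start, so their boxes lie nearer the printed end than 62 and 135 bases. The *Nsdhl* stretch is cut on the far side, and its positions count from the printed end.
Hmgcs1: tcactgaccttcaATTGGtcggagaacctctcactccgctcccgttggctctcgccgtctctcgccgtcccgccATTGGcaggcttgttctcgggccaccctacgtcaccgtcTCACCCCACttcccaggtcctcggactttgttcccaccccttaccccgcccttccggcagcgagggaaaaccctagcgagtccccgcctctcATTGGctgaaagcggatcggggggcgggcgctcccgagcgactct
Sc5d: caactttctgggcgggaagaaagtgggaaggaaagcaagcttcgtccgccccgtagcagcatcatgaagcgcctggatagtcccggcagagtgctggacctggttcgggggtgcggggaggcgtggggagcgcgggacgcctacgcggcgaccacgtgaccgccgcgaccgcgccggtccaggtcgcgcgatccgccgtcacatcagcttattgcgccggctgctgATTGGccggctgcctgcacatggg
Lss: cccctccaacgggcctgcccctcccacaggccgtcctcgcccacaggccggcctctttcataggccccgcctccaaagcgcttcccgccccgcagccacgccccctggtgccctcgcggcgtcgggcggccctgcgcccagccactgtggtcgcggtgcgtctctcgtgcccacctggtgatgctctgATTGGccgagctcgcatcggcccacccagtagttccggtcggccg
Srebf2: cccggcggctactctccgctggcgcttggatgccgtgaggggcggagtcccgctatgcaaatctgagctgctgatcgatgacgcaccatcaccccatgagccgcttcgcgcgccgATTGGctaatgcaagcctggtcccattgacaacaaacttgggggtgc
Nsdhl: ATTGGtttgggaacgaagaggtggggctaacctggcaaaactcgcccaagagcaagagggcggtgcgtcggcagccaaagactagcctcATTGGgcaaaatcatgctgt

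A further 40 lipid genes around the members were read as a list, 8 of isoprenoid branches, 15 of sterol efflux, uptake, esterification and oxysterols, and 17 of fatty acid elongation, desaturation and precursor supply. All 40 were tested. In the responses edgeR's test called 0 for B6, CAST and WSB and 1 for PWK, with 3, 7, 4 and 7 at an unadjusted p under 0.05 and medians of 0.020, -0.0045, 0.026 and 0.00086. Of all genes 0.224%, 0.658%, 0.375% and 2.04% passed in B6, CAST, WSB and PWK, so the count in PWK is near that share. The call in PWK was *Ch25h*, an enzyme of activated macrophages that makes an oxysterol. It lay near the lower end of what is counted, from 0.0567 to 0.206 CPM (median 0.15) in PWK WT mice and from 0.513 to 1.64 CPM (median 1.06) in PWK.*APP/PS1* mice, without overlap, and the large ratio (log2 fold change 2.90, SE 0.337, adjusted p = 2.42e-10) rests on these low levels. Its response also differed between strains (adjusted p = 3.26e-04). Over the 4 strains 3 of 40 passed, 2 higher and 1 lower, where 2.27% of all genes passed: *Ch25h* (log2 fold change 1.201, SE 0.174, adjusted p = 1.94e-07), the lysosomal cholesterol carrier *Npc2* (log2 fold change 0.093, SE 0.0217, adjusted p = 0.00441) and the sterol exporter *Abcg1* (log2 fold change -0.054, SE 0.0115, adjusted p = 0.00121). All 3 belong to the list of efflux and oxysterols, while 0 of 8 isoprenoid genes (1 unadjusted) and 0 of 17 elongation and desaturation genes (5 unadjusted) passed. The smallest p-values in the other responses were those of *Elovl6* (log2 fold change 0.10, adjusted p = 0.778) and *Acss2* (0.061, 0.873) in B6, *Abcg1* (-0.080, 0.0757) and *Npc2* (0.13, 0.184) in CAST, *Elovl7* (0.18, 0.228) and *Npc2* (0.12, 0.324) in WSB, and, next to *Ch25h*, *Acaca* (0.10, 0.0986) in PWK.

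Between WT strains 29 (CAST to B6), 23 (WSB to B6), 25 (PWK to B6), 26 (CAST to PWK), 27 (WSB to PWK) and 22 (CAST to WSB) of the 40 further genes passed, beside the shares of all genes given for the members. The smallest p-values belonged to the elongase *Elovl2* (log2 fold change 0.62, adjusted p = 1.99e-23) and malic enzyme *Me1* (0.50, 1.40e-21) for CAST to B6. For WSB to B6 they belonged to *Coq2* of ubiquinone synthesis (-0.46, 3.31e-18) and the elongase *Elovl1* (-0.52, 9.56e-16), and the same genes led PWK to B6 (-0.91, 1.14e-35 and -0.75, 1.35e-23). CAST to PWK was led by the acetyl-CoA carboxylase *Acacb* (1.57, 2.82e-28) and *Elovl1* (0.68, 4.89e-21), and WSB to PWK by the desaturase *Fads1* (-0.42, 2.28e-29) and *Acss2* (-0.38, 2.34e-21). CAST to WSB was led by *Fads1* (0.39, 3.92e-28) and the sterol sensor gene *Nr1h3* (-1.12, 5.69e-21). In WT females against males edgeR's test called 0 of 40, with 5 at an unadjusted p under 0.05, led by *Hsd17b12* (0.099, 0.0510) and *Hacd3* (0.039, 0.205), and 0 of 40 responses differed between the sexes, with 3 unadjusted. Of all genes 0.456% passed between WT females and males, and 0.00422% had a response that differed between the sexes.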

How the data were processed

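The deposited values are raw counts of reads per gene, 1 library per mouse. The authors prepared polyA libraries, trimmed reads with Trimmomatic, aligned them with STAR to GRCm38 or, for CAST, WSB and PWK, to custom strain genomes, and used HTSeq to count them on Ensembl genes. Tool versions and the strand setting of HTSeq are not given in the sources used here. The reads that HTSeq put on no feature, 12.24% to 18.18% per library, and the other summary lines were left out. Depth is given with the results.

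A gene was kept where 10% of the mice or more had a count of 10 or more. Library sizes were scaled by TMM. edgeR 4.0.16 in R 4.3.3 was used for a quasi-likelihood fit with a mean for each of 16 groups of strain, genotype and sex, tested on simulated data, with Benjamini-Hochberg adjustment and a threshold of 0.05. Log2 CPM for scores and correlations had a prior count of 2. Values, figures and alignments used Python 3.11.15, numpy 2.4.6, pandas 2.3.3, matplotlib 3.10.9 and blastn 2.17.0. A copy is another gene with at least 95% identity over at least 300 bases.

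Full values are given for the 3 members with the largest change in each WT comparison among those past the threshold and of 1 sign in both sexes, for every member past the threshold in a response (the 5 with the smallest p where more passed) and in the response over the 4 strains, for X-linked members between the sexes, and for the 3 highest and 3 lowest levels per length. For the further lipid genes the 2 with the smallest p are named. The alternatives were DESeq2 1.42.0 as the test, its size factors, no count filter, the library-number block, the replicate block, only the mice compared, a prior count of 0.5, the median or SD-weighted members for the score, leaving out each mouse of the groups under 6, and leaving out the pair of B6 mice. The response over the 4 strains, the fits within blocks and the score by sex were chosen after seeing the data. The members and lists were chosen with earlier results of these data known.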

Additional observations from a re-analysis of the deposited data

Results flagged for a closer look

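Each member's log2 CPM was examined in each group of 4 to 6 mice for a highest or lowest mouse far from the rest, by Dixon's ratio of gap to range. Of 480 such groups 23 were picked out, and 0 of the 16 groups of the score. Chance flags about 1 in 20 groups.

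B6 WT male replicate 5 accounts for 6 of them. It was the highest of its group for *Acat2* (5.23, next 4.90), *Pmvk* (5.09, next 4.72), *Fdps* (2.16, next 1.82), *Srebf1* (6.38, next 6.10) and *Scap* (6.39, next 6.26), and the lowest for *Lss* (5.15, next 5.54). B6.*APP/PS1* female replicate 2 was the highest for *Ebp* (4.35, next 4.01) and *Srebf1* (6.29, next 5.91). On the leading component of all mice these 2 have the lowest values among the B6 mice.

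PWK WT female replicate 2 was the highest for *Hmgcs1* (8.19, next 8.06) and *Sqle* (6.25, next 6.13). WSB WT male replicate 1 was the lowest for the same genes, *Hmgcs1* (7.78, next 7.96) and *Sqle* (6.01, next 6.16). CAST.*APP/PS1* male replicate 1 was the highest for *Sc5d* (5.46, next 5.34) and the lowest for *Scap* (6.24, next 6.37).

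The remaining values came from single mice. The lowest of their groups were B6 WT female replicate 3 for *Acat2* (4.56, next 4.78), B6 WT female replicate 4 for *Mvd* (3.36, next 3.70) and WSB WT female replicate 3 for *Cyp51* (5.56, next 5.90). The highest were WSB WT male replicate 4 for *Mvk* (3.99, next 3.80), WSB.*APP/PS1* male replicate 3 for *Idi1* (4.89, next 4.74), WSB.*APP/PS1* male replicate 4 for *Cyp46a1* (6.97, next 6.83), WSB WT female replicate 1 for *Acly* (7.97, next 7.84), CAST.*APP/PS1* male replicate 6 for *Fasn* (8.74, next 8.64) and PWK WT male replicate 4 for *Fasn* (8.77, next 8.62).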

How the results depend on the processing

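Counts of members past the threshold were equal to the reported count or within 1.5 times of it in 216 of 221 repeats under another setting. Many of these repeats left out 1 female B6.*APP/PS1* or PWK WT mouse, which changes little in comparisons without that mouse. In B6 the response had 1 member, not 3, when only the mice compared were fitted. In WSB it had 7 by DESeq2's test and 6 without the pair of B6 mice, against 3. WT females and males differed in 1 member by DESeq2 and in 3 without the pair of B6 mice, against 0. The cause was not tested. All 143 repeats of the score differences moved by less than the SD between mice. That SD is larger than some of the differences themselves, so this is a loose limit. The difference between WT PWK and B6 changed sign within it.

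The 51 pairs of a named member and a comparison were mostly picked by a small p or a large change. Among them 792 repeats kept direction and side of the threshold, 9 lost the call and 0 reversed. The 9 concern *Stard4* and *Hmgcs1* in B6 and *Sc5d* in WSB. Their log2 fold changes ran from 0.191 to 0.237, 0.127 to 0.157 and 0.157 to 0.162 over the alternatives. *Sc5d* had adjusted p-values of 0.0541 without the count filter, 0.0777 with the library-number block and 0.291 in the WSB mice alone. *Stard4* in B6 had 0.0954 in the B6 mice alone. *Hmgcs1* in B6 had 0.0572 without the filter, 0.136 in the B6 mice alone, and the values given with its result without single mice. Calls outside these pairs are not in the tally. Some of them were also lost in other settings, such as *Lss* in PWK, *Srebf2* and *Hmgcs1* in CAST, and *Hsd17b7* between WT PWK and B6.

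Leaving out single mice of the groups under 6 gave 2 to 4 members in B6, 7 in CAST, 3 in WSB, 7 to 8 in PWK and 15 to 16 over the 4 strains, and 17 to 20 for WT PWK against B6. Those groups were female B6.*APP/PS1* and female PWK WT mice. No CAST or WSB mouse was left out, so the CAST and WSB counts do not show how far they rest on single mice. With the library-number block WT PWK and B6 differed in 19 members, of which 16 were among the 20 called without it. The same block gave 8 members in the CAST response, including all 7 called without it. A fit of the WSB mice alone gave 3 members in the WSB response, of which 2 were among the 3 of the main fit. The replicate block gave each replicate number a common effect over all 16 groups, which does not pair mice within a strain and sex. With it 3, 7, 4 and 8 members passed in B6, CAST, WSB and PWK and 15 over the 4 strains. Replicate numbers do not pair mice: the mean correlation was 0.00812 between groups for mice of the same number (45 pairs) and -0.00162 for different numbers (225 pairs).

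Small changes limit what can be said of single members. The called responses of single strains reach at most 1.22-fold (*Fdps* in CAST), the ranges of the genotypes overlap for every member and strain, and calls at the edge of the threshold depend on the setting. Hemispheres hold many cell types, the custom genomes differ between strains, and B6 libraries were numbered apart. Protein and sterol levels were not analysed here.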
